A study of Oryza sativa with 200 samples.

Results

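The genes described here are 7 genes of light perception in leaves of rice: the phytochrome genes PHYA (Os03g0719800), PHYB (Os03g0309200) and PHYC (Os03g0752100), SE5 (Os06g0603000), and the cryptochrome genes CRY1a (Os02g0573200), CRY1b (Os04g0452100) and CRY2 (Os02g0625000). They were chosen by identifier, all 7 were found among the 37849 genes of both count tables, and all 7 passed the filters on low counts. The names PHYA, PHYB, PHYC and SE5 were not contradicted by the chromosomes in a RefSeq gene table, while the cryptochrome symbols are not listed there and rest on the identifiers alone. RNA came from 100 lines of JAM2, a rice population made by intercrossing several parents and inbreeding the offspring, whose parents are the varieties Akidawara, Iwaidawara, Tachiharuka and Toyomeki. Each line was grown as 33 plants in a single plot without replicate plots in a paddy field, given a basal chemical fertilizer with 56 kg nitrogen per ha, and all 200 libraries carry the treatment label control. Seed was sown on 18 April in 2022 (generation F5) and on 17 April in 2023 (generation F6). A fully expanded leaf was taken from each line at 9:00 to 11:00, 6 weeks after transplanting, on 1 July 2022 and on 29 June 2023, so each line has 1 library per year and each year is 1 season, 1 sampling day, 1 generation and 1 set of libraries, which cannot be told apart. The p-values below measure the spread between lines.

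Phytochromes are receptors of red and far-red light that switch between an inactive and an active form, and each needs a linear tetrapyrrole chromophore attached to it. SE5 encodes the heme oxygenase that opens heme in the making of this chromophore, and rice plants without it flower early and respond poorly to day length. Cryptochromes are flavoprotein receptors of blue light that act on seedling growth, and in rice the CRY2 protein also acts in the timing of flowering.

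Library totals ranged from 3254834 to 37774023 counts in 2022 (median 7768777) and from 3729294 to 16881699 in 2023 (median 11272411). In 2022 the 30 deepest libraries, with 11377900 counts or more, stood apart from the other 70, which had at most 10002076, and all 30 lay in columns 52 to 100 of that year's table. Leaf genes were high in both years, with mean CPM (read counts scaled to a common library total) of 13910 and 13409 for CAB1R (Os09g0346500), a light harvesting protein gene, whereas the seed storage gene GLUA-1 (Os01g0762500) was at 0.438 and 0.291. The root marker LSI1 (Os02g0745100) was at 16.3 and 20.8 CPM, the panicle marker OsMADS1 (Os03g0215400) at 5.36 and 4.47 and PCNA (Os02g0805200), a marker of dividing tissue, at 6.43 and 5.12. OsMADS1 varied widely between lines, with an SD of 7.15 CPM in 2022 and 6.28 in 2023, and r of its levels between the years was 0.88. Its log2 CPM followed column position at r = 0.75 in 2022 and −0.84 in 2023. The leaf marker RBCS-C (Os12g0274700) rose by 0.84 on the log2 scale between the years, the largest change among the listed leaf markers. Of the others, Os12g0291400 was at 0.62, Os12g0292400 at 0.42 and Os12g0291100 at 0.12, the last not called (adjusted p = 0.080 by edgeR). CAB1R was at −0.06 and CAB2R (Os01g0600900) at −0.03, and neither was called. The part of tissue makeup in the results was not tested. Libraries were compared with the median library of their year over all genes at 1 CPM or more. The least like it were line J2_378 in 2022 (r = 0.914, median of all libraries 0.963) and line J2_204 in 2023 (r = 0.921, median 0.965). Part of the results below is also given without these lines.

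Among the phytochrome genes, PHYA, the receptor of far-red light, had the fewest reads per library. Its level in 2022 ran from 14.1 to 28.7 CPM with a median of 19.8 (19.9 ± 3.17, SD, n = 100 lines), and in 2023 from 9.75 to 21.3 with a median of 15.6 (15.6 ± 2.44). Counting error alone would give 22.3% of its variance between lines in 2022 and 28.2% in 2023, on the log2 scale. PHYB, the receptor that reports red light and shade in green plants, ran from 50.4 to 139 CPM in 2022 with a median of 85.6 (88.0 ± 18.3) and from 36.5 to 122 in 2023 with a median of 85.3 (86.7 ± 14.9). PHYC, a phytochrome that in rice pairs with PHYB, ran from 47.3 to 133 CPM in 2022 with a median of 87.5 (85.7 ± 15.6). In 2023 its libraries lay between 33.5 and 88.8 CPM with a median of 74.9 (74.8 ± 7.17). The ranges of the years overlapped for each of the 3 phytochrome genes, and PHYC had the narrower spread in 2023, with an SD of 0.16 on the log2 scale against 0.27 in 2022. With a linear and quadratic trend over column position removed, the SD of PHYC was 0.16 in 2023 and 0.18 in 2022. In bulk leaf RNA fewer cells of a type and less RNA per cell cannot be told apart, and this holds for each level given here.

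SE5 ran from 195 to 465 CPM in 2022 with a median of 303 (306.1 ± 59.9, SD, n = 100) and from 258 to 685 in 2023 with a median of 377 (380.5 ± 60.6). In 2022 the 3 cryptochrome genes had the smallest spread between lines of the 7. CRY1a ran from 104.3 to 232 CPM in 2022 with a median of 170 (170 ± 20.8) and from 141 to 244 in 2023 with a median of 190 (189 ± 21.3). CRY1b ran from 129 to 267 CPM in 2022 with a median of 208 (207 ± 23.5) and from 145 to 313 in 2023 with a median of 245.7 (244 ± 28.2). Their SD on the log2 scale was 0.18 and 0.17 in 2022 and 0.16 and 0.17 in 2023. CRY2 ran from 39.7 to 84.7 CPM in 2022 with a median of 50.4 (52.3 ± 7.21) and from 29.1 to 100.8 in 2023 with a median of 51.6 (52.5 ± 9.26).

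The spread of these genes between lines was below that of most genes. The median SD over 18490 genes was 0.32 on the log2 scale in 2022 and 0.31 in 2023, while the 7 members lay between 0.17 and 0.30 in 2022 and between 0.16 and 0.26 in 2023. For no member did the lines fall into separate groups, since the widest gap with at least 10 lines on each side was at most 5.64% of the range in any year. Line J2_204 in 2023 held the lowest values of PHYB, PHYC, CRY1b and CRY2 and the highest of SE5, at 36.5, 33.5, 145, 29.1 and 685 CPM, where the same line in 2022 had 69.4, 59.0, 172, 49.6 and 303. Line J2_378 in 2022 held the lowest CRY1a and CRY1b, at 104.3 and 129 CPM, and had 174 and 271 in 2023.

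**Figure D1:**
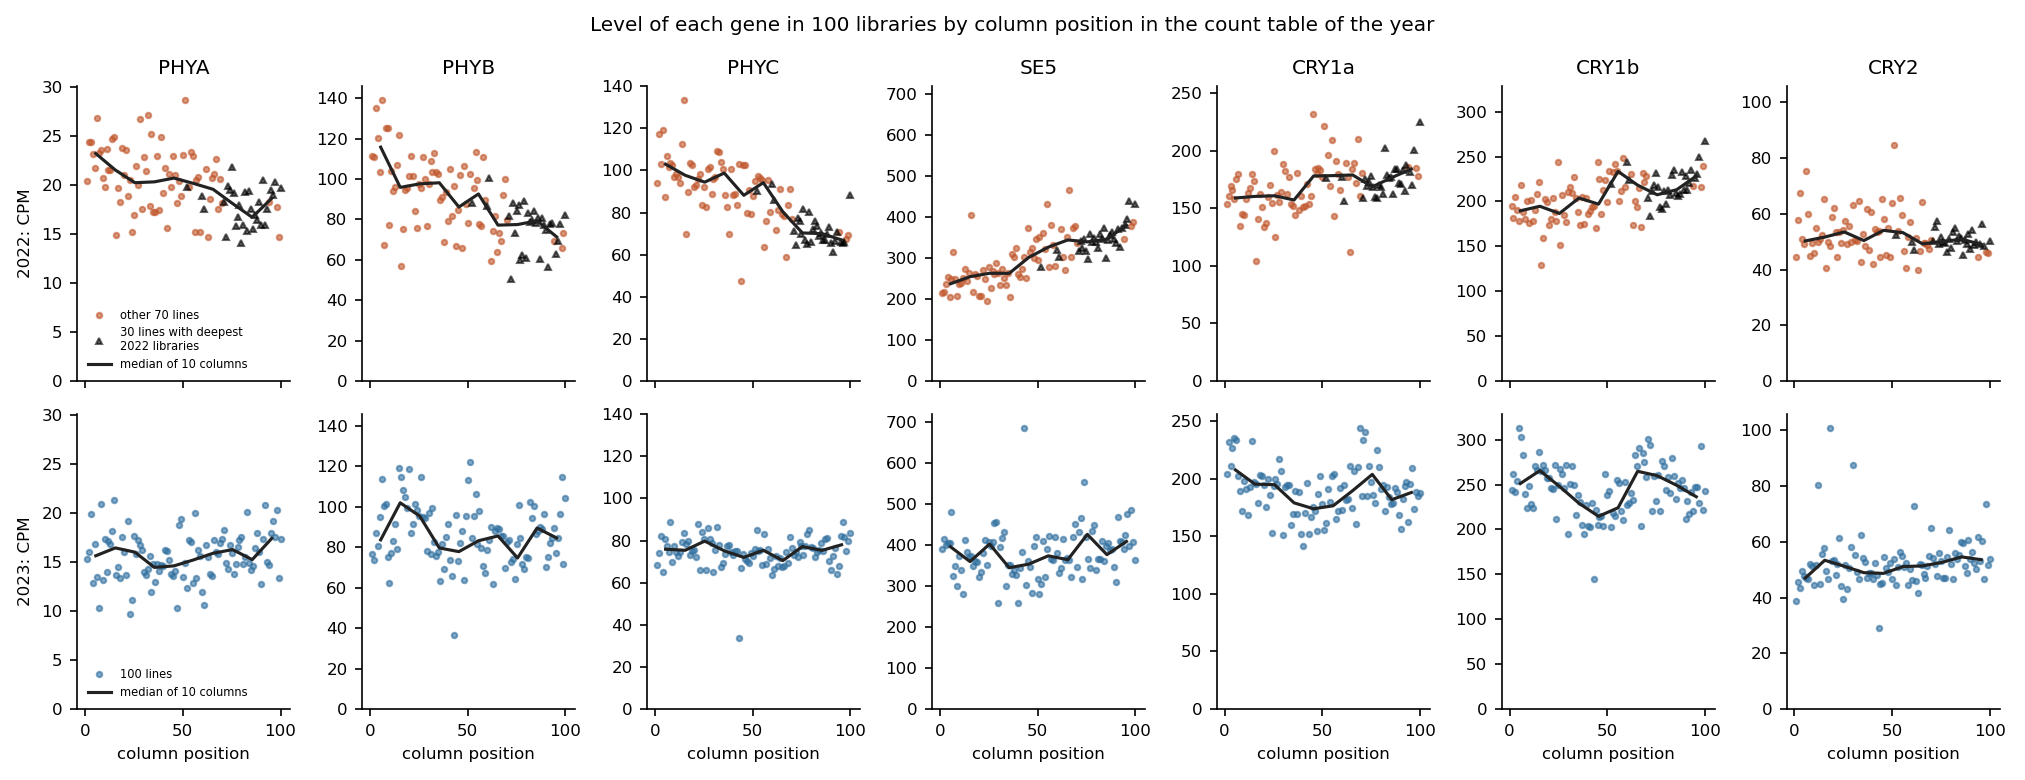
Level of each gene in CPM (vertical axes, linear from 0) against the position of the library's column in the count table of 2022 (upper panels) and 2023 (lower panels). Points are libraries, triangles mark the 30 deepest libraries of 2022, and lines join the medians of 10 neighbouring columns. In 2022 the median of PHYB goes from 116 CPM in columns 1 to 10 to 71.4 in columns 91 to 100 and that of SE5 from 237 to 380, and in 2023 none of the 7 passed.

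Between the years SE5, CRY1a and CRY1b rose, PHYA and PHYC fell, and PHYB and CRY2 did not pass. PHYA was higher in 2022 in 86 of 100 lines, a log2 change (2023 minus 2022) of −0.36 (SE 0.0327, adjusted p = 3.1e-21 in edgeR's quasi-likelihood F test, Benjamini-Hochberg over 18674 genes). PHYC was higher in 2022 in 68 lines, at −0.21 (SE 0.0311, adjusted p = 1.3e-09). PHYB was at −0.03 (SE 0.0396, adjusted p = 0.49), with 53 lines higher in 2022 and 47 higher in 2023.

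SE5 was higher in 2023 in 85 of 100 lines, at 0.31 (SE 0.0357, adjusted p = 1.1e-14 by edgeR). CRY1b was higher in 2023 in 88 lines (0.23, adjusted p = 1.6e-18) and CRY1a in 80 (0.15, adjusted p = 1.2e-08, both by edgeR). CRY2 was at −0.0036 (SE 0.0301, adjusted p = 0.92 by edgeR), with 48 lines higher in 2023 and 52 in 2022. Of all tested genes 34.3% were called higher in 2023 and 36.9% lower, 71.2% in all, so 3 higher and 2 lower among 7 is near the share of all genes. Scaling by total counts moved the median change of all genes from −0.01 to −0.12, and with it PHYB at −0.15 and CRY2 at −0.11 passed as lower, near that shift, while CRY1a at 0.04 no longer passed.

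The phytochrome changes were not alike in all lines. Among the lines of the 30 deepest 2022 libraries, PHYC had 72.5 ± 8.28 CPM in 2022 and 77.3 ± 5.63 in 2023 (SD, n = 30), a log2 change of 0.10 (adjusted p = 0.013 by edgeR), higher in 2023 in 23 of 30 lines. The other 70 lines had 91.3 ± 14.6 CPM in 2022 and 73.7 ± 7.52 in 2023, a change of −0.33 (adjusted p = 2.7e-16 by edgeR), with 9 of 70 lines higher in 2023. The call of PHYC therefore had opposite directions in these sets of lines, in which 49.2% (30 lines) and 69.2% (70 lines) of all tested genes were called. PHYB likewise went from 76.5 ± 11.5 to 94.0 ± 15.8 CPM in the 30 lines (0.31, adjusted p = 2.1e-05) and from 93.0 ± 18.4 to 83.6 ± 13.4 in the other 70 (−0.18, adjusted p = 2.8e-04, both by edgeR). Its change of −0.03 over all lines thus stands beside called changes in both directions.

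PHYA kept its direction, at −0.19 in the 30 lines and −0.43 in the other 70. SE5 rose by 0.40 on the log2 scale in the 70 lines and was at 0.09 in the 30 (adjusted p = 0.093 by edgeR). Tested directly, the change in the 30 lines minus that in the 70 was 0.49 for PHYB (SE 0.0790, adjusted p = 1.7e-07), 0.43 for PHYC (SE 0.0572, adjusted p = 3.6e-10), 0.25 for PHYA (SE 0.0667, adjusted p = 0.0019) and −0.31 for SE5 (SE 0.0743, adjusted p = 4.7e-04), all by edgeR's interaction of year and set of lines. The cryptochrome genes did not pass this test, with differences of 0.00049 for CRY1a (SE 0.0520), −0.05 for CRY1b (SE 0.0499) and 0.08 for CRY2 (SE 0.0650). Of all genes 32.3% were called in this test, against 4 of the 7 members. The test was not planned and was added after the data were seen.

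**Figure D2:**
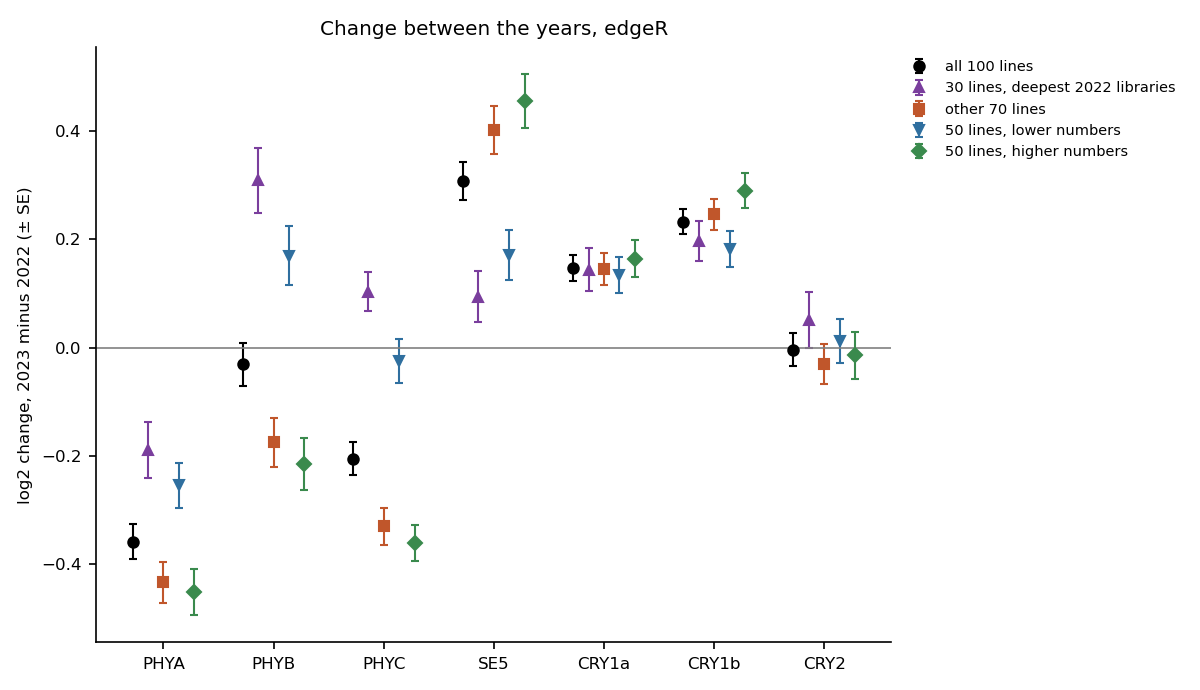
Log2 change between the years (vertical axis, 2023 minus 2022, edgeR) of each gene, with bars of 1 SE, in all 100 lines and in subsets of lines by depth of the 2022 library or by line number. PHYB lies at 0.31 among the lines of the 30 deepest 2022 libraries and at −0.18 in the other 70, while CRY1a and CRY1b lie above 0 in every set shown.

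These 30 libraries stood late in the 2022 table, and the members' levels followed the order of columns there. In 2022 the phytochrome genes fell along the columns, with Pearson's r between log2 CPM and column position of −0.73 for PHYC (Spearman's rho −0.76), −0.59 for PHYB (rho −0.60) and −0.50 for PHYA (rho −0.52). SE5 rose with r = 0.77 (rho 0.79), CRY1b with r = 0.52 (rho 0.53) and CRY1a with r = 0.40 (rho 0.45). Each permutation p of these 6 was 1e-05, the smallest that 100000 permutations can give, the largest adjusted p over all 18490 genes was 1.1e-04 (CRY1a), and r without the 2 columns farthest from the middle was −0.75, −0.59, −0.51, 0.76, 0.50 and 0.37 in the order named. CRY2 did not pass (r = −0.20, rho −0.18, permutation p = 0.048 and 0.066, adjusted p = 0.085), but it did with total counts (r = −0.31, adjusted p = 0.0039), with RLE factors (−0.26, adjusted p = 0.021) and without lines J2_378 and J2_204 (−0.22, adjusted p = 0.048). Of all genes 53.6% were called in 2022, 30.8% rising and 22.8% falling, so 6 of 7 stands beside a trend shared by most genes.

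For 2 genes the trend held most of the spread between lines. A linear and quadratic trend over position held 59.7% of the variance of SE5 between lines in 2022 and 53.5% of that of PHYC, but 35.1% for PHYB, 26.7% for CRY1b, 24.7% for PHYA, 16.4% for CRY1a and 4.51% for CRY2. The median of SE5 went from 237 CPM in columns 1 to 10 to 380 in columns 91 to 100, and that of PHYB from 116 to 71.4. Within the other 70 libraries r was 0.71 for SE5, −0.58 for PHYC, −0.50 for PHYB, 0.42 for CRY1b, 0.37 for CRY1a and −0.37 for PHYA. Within the 30 deepest it was 0.77 for SE5, −0.55 for PHYC, 0.46 for CRY1a, 0.32 for CRY1b and −0.29 for PHYB, and PHYA was at −0.03. Both SE5 and PHYC passed within the 30 alone, and no other member did. Of all genes 1107 passed within the 30, against 5696 within the other 70 and 9914 in all 100 libraries.

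In 2023 none of the 7 passed, with r from −0.13 (CRY1a, permutation p = 0.21) to 0.19 (SE5, permutation p = 0.059), where 9.24% of all genes did. By rank the 2023 relation of CRY2 passed (rho 0.29, adjusted p = 0.041 over all genes). CRY1a and CRY1b fell over columns 1 to 50 of 2023 (r = −0.57 and −0.56) and had r = 0.01 and 0.07 over columns 51 to 100.

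The difference of the slopes (2023 minus 2022) was called for 7 of 7 members, from 0.07 log2 units per 10 columns for PHYC (SE 0.0080) to −0.06 for SE5 (SE 0.0102), by edgeR's interaction of year and position, in which 38.1% of all genes were called. With line as a replicate block it was called for 0 of 7 (adjusted p from 0.12 to 0.995 by edgeR), where 2.14% of all genes were called, at 0.06 for PHYC (SE 0.0242) and −0.08 for SE5 (SE 0.0276). Lines stood in nearly opposite order in the tables (r of position between the years −0.788), and the block raised the SE of PHYC from 0.0080 to 0.0242. The 2023 level of the same lines was also set against their 2022 positions. This gave r from −0.09 (SE5) to 0.18 (PHYB), none of 7 called against 6.89% of all genes. The 2022 level against the 2023 positions, which run nearly the other way, was called for 6 of 7 (44.9% of all genes), with r = 0.65 for PHYC, 0.48 for PHYB and PHYA, −0.53 for SE5, −0.39 for CRY1b and 0.30 for CRY2. The panicle marker OsMADS1 followed the columns of both years, at r = 0.75 in 2022 and −0.84 in 2023. What the order of columns stands for is not given in the labels and was not tested.

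For 1 of the 7 genes the differences between lines were repeated from year to year. Repeatability was taken as r between the 2022 and 2023 log2 CPM of the 100 lines and called at r above 0 with an adjusted p under 0.05 over 18490 genes. CRY2 alone of the 7 was called, with r = 0.32 and rho = 0.38 (permutation p = 0.0016 and 7e-05, adjusted p = 0.0083). Without the 2 lines farthest from its 2022 median r was 0.27, without lines J2_378 and J2_204 it was 0.33, with the column trends removed it was 0.28 (adjusted p = 0.026), and in libraries thinned to the smallest total it was 0.23 and no longer passed (adjusted p = 0.097). In the other 70 lines r of CRY2 was 0.38, and among the 30 it was 0.15.

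CRY1a (r = 0.23, rho 0.25, permutation p = 0.021 and 0.011, adjusted p = 0.082, 0.17 without the 2 farthest lines) and CRY1b (r = 0.20, rho 0.22, permutation p = 0.049 and 0.026, adjusted p = 0.15, 0.24 without the 2 farthest) did not pass. SE5 had r = 0.07 (rho 0.07, permutation p = 0.49 and 0.46), PHYA 0.08 (rho 0.07, 0.42 and 0.51), PHYC 0.04 (rho −0.13, 0.73 and 0.21) and PHYB −0.06 (rho −0.12, 0.58 and 0.25). Of all genes 21.9% were called, and their median r was 0.11. With the column trends removed r was 0.19 for SE5, 0.11 for PHYC and 0.05 for PHYB, and none of these passed, where 25.8% of all genes did.

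**Figure D3:**
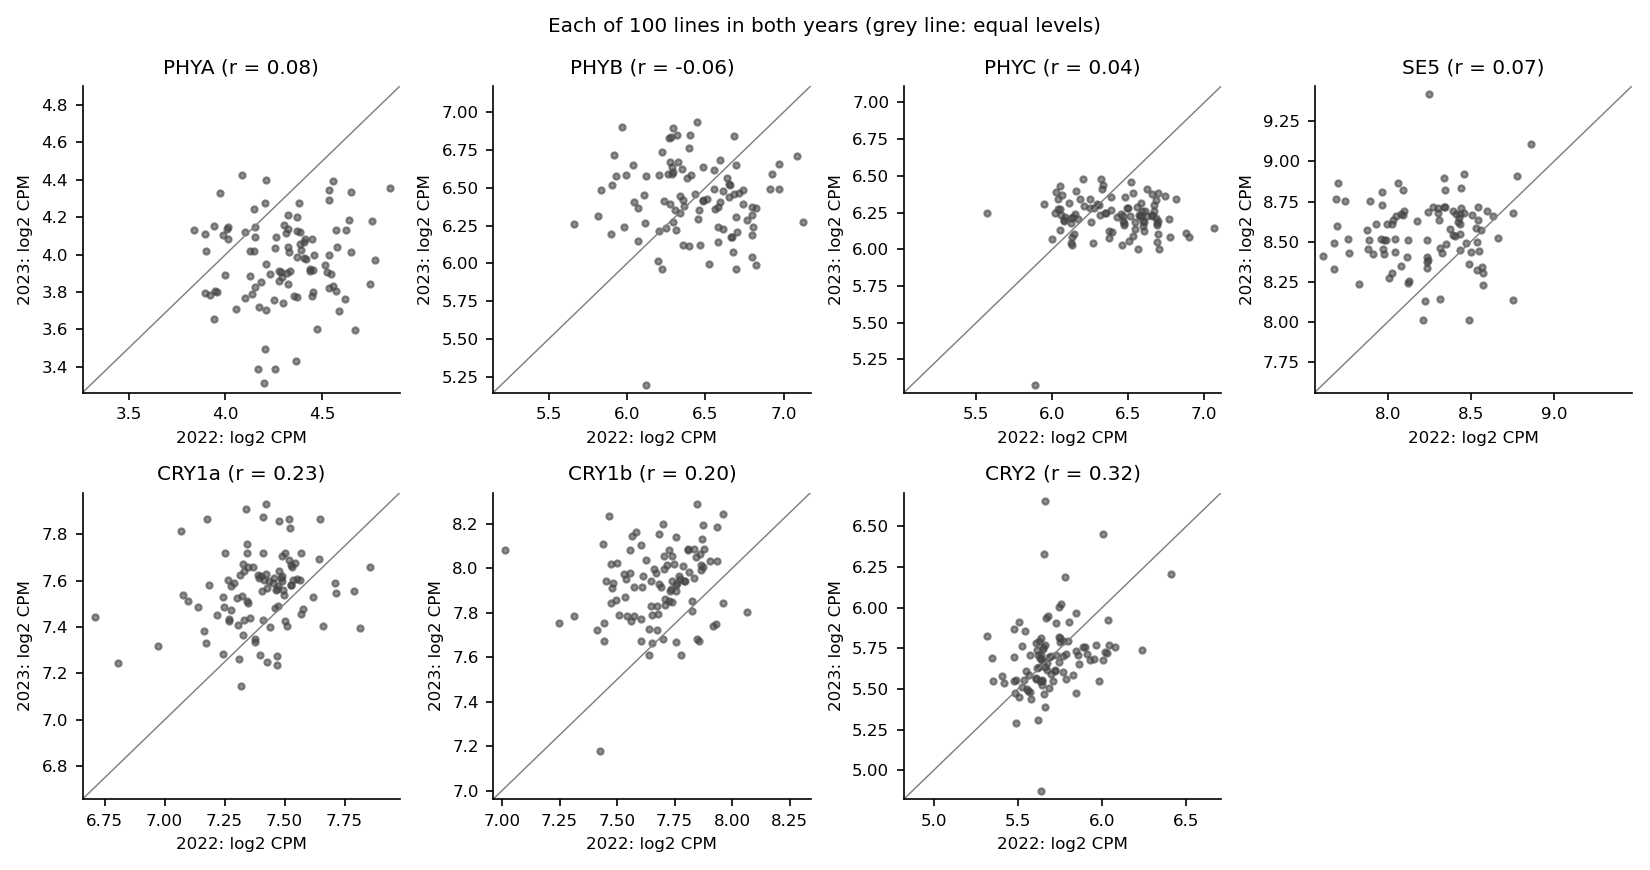
Log2 CPM of each of 100 lines in 2022 (horizontal axes) and in 2023 (vertical axes), 1 panel per gene, with a grey line where the years are equal. CRY2 has the highest r (0.32), PHYA lies mostly below the line (86 lines higher in 2022) and CRY1b mostly above it (88 lines higher in 2023).

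Within a year the genes varied together in part. Over 21 pairs and 42 tests, 14 pairs were called in 2022 and 12 in 2023 (permutation p, Benjamini-Hochberg adjusted over the 42), and 7 were called with the same sign in both years. For the relation of all genes with the 7 members, 12.9% were called in both years with 1 sign. That share used p from the t distribution of r, adjusted over all genes for each member, so its threshold is unlike that of the pairs. No share of all genes is given for single years or for the pair counts under other settings. By the lower r of both years the closest pair was CRY1a and CRY1b, with r = 0.72 (rho 0.69) in 2022 and 0.72 (rho 0.72) in 2023, each permutation p 1e-05 and adjusted p = 3.8e-05. This r was 0.71 in both years without the 2 lines farthest from the CRY1a median, 0.66 and 0.69 with the column trends removed, 0.59 and 0.70 in the 30 lines and 0.73 and 0.73 in the other 70. SE5 rose and fell with CRY1a at r = 0.54 in 2022 (rho 0.62) and 0.56 in 2023 (rho 0.62), each with adjusted p = 3.8e-05, at 0.39 and 0.57 with the trends removed, and at 0.53 and 0.71 without the 2 lines farthest from the SE5 median. SE5 with CRY1b was at 0.52 and 0.28 (rho 0.59 and 0.50, adjusted p = 3.8e-05 and 0.0097), and at 0.51 and 0.56 without those lines. PHYA with PHYC was at 0.60 and 0.34 (rho 0.63 and 0.47, adjusted p = 3.8e-05 and 0.0016), and at 0.59 and 0.32 without the 2 lines farthest from the PHYA median.

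PHYB with PHYC, with CRY2 and, at a negative r, with SE5 made up the rest of the 7, and these 3 were lost in 2023 without lines J2_378 and J2_204. PHYB with PHYC was at 0.78 in 2022 and 0.42 in 2023, and without lines J2_378 and J2_204 at 0.78 and 0.13 (adjusted p = 0.28 in 2023). PHYB with SE5 was at −0.54 in 2022 and −0.32 in 2023, and at −0.53 and −0.16 without them (adjusted p = 0.18 in 2023). With the column trends removed this pair was at −0.16 in 2022 (adjusted p = 0.15), where it no longer passed, and at −0.35 in 2023. PHYB with CRY2 was at 0.36 and 0.28, and at 0.33 and 0.14 without them. The pairs still called in both years without these lines were CRY1a with CRY1b, SE5 with CRY1a, SE5 with CRY1b and PHYA with PHYC, 4 in all. PHYA and SE5 were called with opposite signs, at −0.27 in 2022 and 0.36 in 2023, and with the trends removed they were at 0.21 (adjusted p = 0.053) and 0.31. PHYC with SE5 was at −0.51 in 2022 and −0.10 in 2023, where rho was 0.25 (adjusted permutation p = 0.023). Without lines J2_378 and J2_204 this pair was at −0.51 and 0.29 (adjusted p = 0.0080 in 2023, from the t distribution of r). With the trends removed it was at 0.13 and −0.15, neither called.

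Some pairs were called in 2022 once the trends were removed. PHYB with CRY1b went from 0.13 to 0.64 in 2022, beside 0.44 and 0.42 in 2023, and PHYC with CRY1b from −0.01 to 0.63, beside 0.42 and 0.39. Without lines J2_378 and J2_204, and with the trend left in, PHYC with CRY1b was at 0.19 in 2023 (adjusted p = 0.11) and PHYB with CRY1b at 0.30 (adjusted p = 0.0066). In all 10 pairs were called in both years with the trends removed. This count was not taken without lines J2_378 and J2_204. Of the 10, PHYB with PHYC, PHYB with CRY2 and PHYC with CRY1b no longer passed in 2023 without these lines when the trend was left in.

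**Figure D4:**
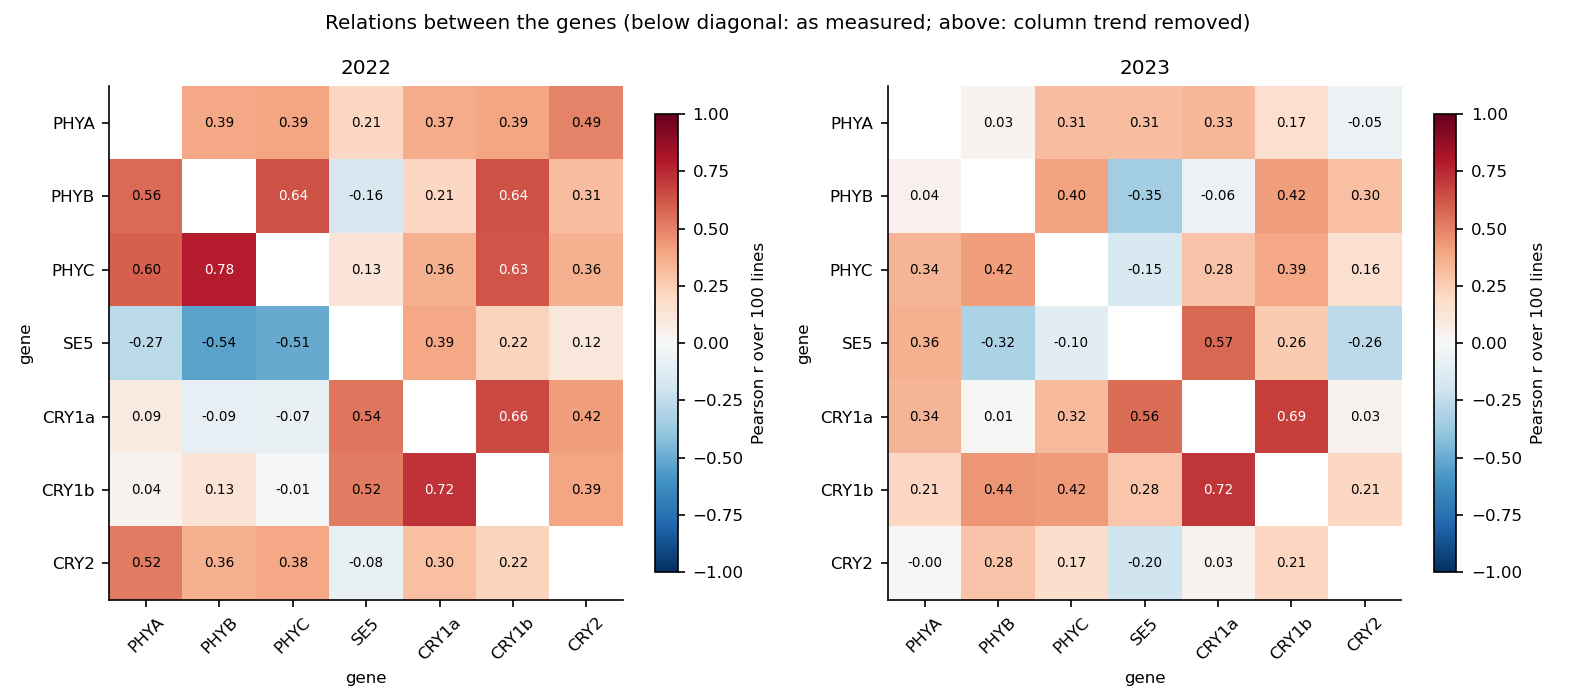
Pearson's r over 100 lines for each pair of genes in 2022 (left) and 2023 (right), as measured below the diagonal and with the column trend removed above it. CRY1a with CRY1b is high in each of the 4 values (0.66 to 0.72), and SE5 is negative with PHYB and PHYC in 2022 as measured.

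**Figure D5:**
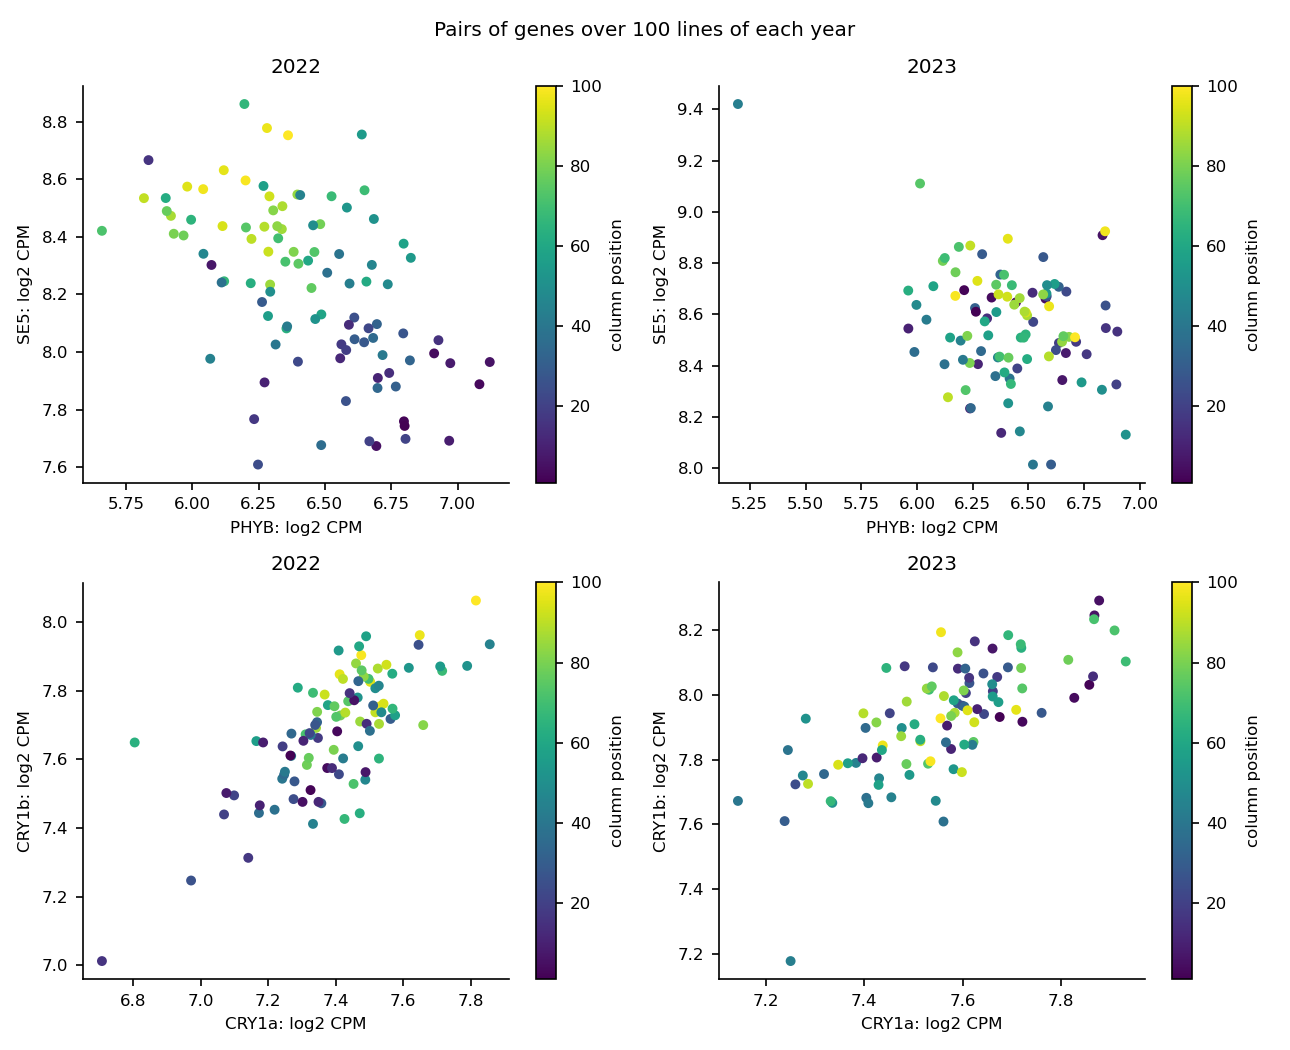
Log2 CPM of PHYB against SE5 (upper panels) and of CRY1a against CRY1b (lower panels) in each library, coloured by column position. The 2022 relation of PHYB and SE5 runs along the column order, and the point apart in both 2023 panels is line J2_204, with the lowest PHYB and CRY1b.

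The members were set beside OsLHY (Os08g0157600), a morning transcription factor of the circadian clock, and OsGI (Os01g0182600), the rice GIGANTEA gene, whose levels change over the day. OsLHY itself followed the columns of 2022 at r = 0.97 and those of 2023 at r = 0.04, and its mean was 880 CPM in 2022 and 1748 in 2023. In 2022 OsLHY was related to SE5 (r = 0.79, rho 0.79), PHYC (−0.68, rho −0.71), CRY1b (0.58, rho 0.58), PHYB (−0.56, rho −0.56), PHYA (−0.47, rho −0.50) and CRY1a (0.47, rho 0.50), each with permutation p = 1e-05 and adjusted p = 2.3e-05 over 28 tests, and 53.8% of all genes were called with OsLHY in that year. Without the 2 lines farthest from its median these r were 0.79, −0.66, 0.60, −0.53, −0.44 and 0.49. Among the lines of the 30 deepest 2022 libraries these r were 0.78, −0.38, 0.45, −0.19, 0.06 and 0.56, and in the other 70 they were 0.72, −0.53, 0.52, −0.47, −0.34 and 0.45. The shares of all genes called with OsLHY and OsGI, here and below, used p from the t distribution of r, adjusted over all genes. Their threshold is thus unlike that of the members.

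With the column trend removed the phytochrome relations with OsLHY shrank to between 0.05 and 0.12, and those of CRY1b, CRY1a and SE5 to 0.40, 0.32 and 0.26. In 2023, where OsLHY did not follow the columns, it was related to CRY1b (r = 0.71, rho 0.68), CRY1a (0.66, rho 0.61) and SE5 (0.47, rho 0.50), each with permutation p = 1e-05, against 23.0% of all genes. Without the 2 lines farthest from its median these were 0.69, 0.68 and 0.46. The phytochrome genes and CRY2 did not pass in 2023, with r from 0.04 to 0.21. OsGI was related in 2022 to SE5 (r = −0.60, rho −0.61), PHYB (0.52, rho 0.49), PHYC (0.50, rho 0.53) and PHYA (0.34, rho 0.33), with permutation p of at most 7.4e-04, where 32.6% of all genes were called. These r were −0.57, 0.48, 0.52 and 0.29 without the 2 lines farthest from its median, −0.57, 0.53, 0.47 and 0.29 in the other 70 lines and −0.26, 0.0030, −0.05 and −0.08 in the 30. OsGI itself fell along the 2022 columns (r = −0.59), and with the column trend removed these r were −0.27, 0.26, 0.14 and 0.06. CRY1a, CRY1b and CRY2 did not pass with OsGI in 2022 (r = −0.12, −0.09 and 0.21). By rank CRY1a was at rho −0.34 and CRY1b at −0.30 (permutation p = 5.4e-04 and 0.0029). Their r was −0.33 and −0.28 without the 2 lines farthest from the OsGI median, and 0.17 and 0.32 with the column trend removed. In 2023 OsGI was related to none of the 7 (17.3% of all genes). The hour at which single leaves were taken is not in the labels, and its part in these relations was not tested.

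Likeness over the lines was measured, for each member, as the lower of the r values with another gene in the 2 years over 100 lines. SE5 and CRY1b had the closest companions, Os03g0439700 for SE5 (r = 0.90 in 2022 and 0.84 in 2023) and Os03g0835100 for CRY1b (0.84 and 0.84). Next but 1 for CRY1b came the clock gene ELF3-1 (Os06g0142600, 0.78 and 0.79). PHYB was most like Os10g0181200 (0.82 and 0.83) and CRY1a most like Os01g0235900 (0.74 and 0.73), followed by CRY1b. PHYC was most like Os01g0616900 (0.76 and 0.71). PHYA and CRY2 had no close companion, since their highest likeness was 0.53 each, with Os02g0704000 and Os01g0923700. Counting error alone would give 22.3% (2022) and 28.2% (2023) of the variance of PHYA and 12.9% and 8.42% of that of CRY2. Its part in the low likeness was not tested. Except for ELF3-1 and CRY1b the companion genes have no name in the tables used. With the column trends removed, r of each member with its most like gene was lower for some in 2022. It was then 0.74 for SE5, 0.78 for CRY1b, 0.82 for PHYB, 0.68 for CRY1a, 0.58 for PHYC, 0.34 for PHYA and 0.53 for CRY2. In 2023 these r were 0.86, 0.84, 0.86, 0.72, 0.71, 0.53 and 0.54, in the order named.

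Other genes of light signalling were taken from a list of 22 loci, of which 21 were tested between the years. Of these 13 were higher in 2023, 6 were lower and 2 did not pass, with a median log2 change of 0.24 beside −0.01 for all genes, where 34.3% of all genes were called higher and 36.9% lower. Along the 2022 columns 12 rose and 5 fell (30.8% and 22.8% of all genes). Of 21 genes 4 were repeatable between the years, near the 21.9% of all genes. Only 5 of the 22 symbols were listed in the reference on the chromosome of their locus, and these are named. HO2 (Os03g0395000), a heme oxygenase homologue of SE5, went the other way from SE5, from a mean of 25.4 CPM in 2022 to 13.1 in 2023 (log2 change −0.97, adjusted p = 3.5e-37 by edgeR). Along the columns it fell in 2022 (r = −0.73) and in 2023 (r = −0.53), and its r between the years was −0.28.

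PHOT2 (Os04g0304200), a blue light receptor kinase known from Arabidopsis for chloroplast movement, rose from 525 to 631 CPM (0.26, adjusted p = 3.6e-25 by edgeR) and rose along the 2022 columns (r = 0.46), as CRY1a and CRY1b did. OsGI was higher in 2023 by 0.09 on the log2 scale, ELF3-1 was at −0.04 (adjusted p = 0.069 by edgeR), and PCL1 (Os01g0971800), a clock gene, had a mean of 0.407 CPM in 2022 and 0.409 in 2023 and was not tested. Of the 17 loci without a listed symbol 11 were higher in 2023, 5 were lower and 1 did not pass, against the same shares of all genes (34.3% higher and 36.9% lower).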

How the data were processed

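Leaf poly(A) RNA of 100 lines was sequenced in 2022 and 2023 as stranded libraries made, per the labels, with the NEBNext Ultra II Directional kit. The authors deposited whole-number counts per gene, 1 table per year, named for unique exon reads per the labels. Per the submitters' processing notes the genome build is IRGSP-1.0, while aligner and counter were not given in the sources used here. All 200 columns were matched to samples by library name, and 0 pairs of libraries were identical. The members and gene lists were chosen with earlier results of these data known.

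The years were compared with edgeR 4.0.16 (R 4.3.3) on raw counts, with filterByExpr by year, TMM factors, a trended dispersion and the quasi-likelihood F test. The SE of a change was taken as its absolute value over the root of F. CPM used TMM factors, and log2 CPM a prior count of 2. Correlations (Python 3.11.15, numpy 2.4.6, scipy 1.17.1) covered genes averaging 1 CPM or more, with p from the t distribution of r adjusted by Benjamini-Hochberg, and for members two-sided p from 100000 permutations. Calls were at an adjusted p under 0.05. Named were the 7 members, listed light signalling genes with a checked symbol, OsLHY, OsGI and, per member, the 3 genes most like it. The line number marks the same line in both years and so pairs the libraries. The fit with it as a block was an alternative, as were DESeq2 1.42.0, other scalings, thinning and subsets of lines, and limma 3.58.1 on differences within lines. Intervals for single counts are not given, and counting error is given as a share of the variance. The year comparison and the correlations were tested on simulated data. No genome or sequence table was used, so no sequences or coordinates are printed and levels are not compared between genes.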

Additional observations from a re-analysis of the deposited data

Results flagged for a closer look

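The slopes over column position differed between the tables of the years for each of the 7 genes, tested by edgeR's interaction of year and position with Benjamini-Hochberg adjustment over all genes. The slope in 2023 minus that in 2022, in log2 units per 10 columns, was 0.0719 for PHYC, 0.0547 for PHYA, 0.0546 for PHYB, 0.0274 for CRY2, −0.0577 for SE5, −0.0302 for CRY1b and −0.0289 for CRY1a. With line as a replicate block these differences had adjusted p from 0.12 to 0.995 by edgeR. The fit without the block called 38.1% of all genes and the fit with it 2.14%.

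The change between the years differed between the 30 lines with the deepest 2022 libraries and the other 70 for 4 genes, tested by edgeR's interaction of year and set of lines. This test, added after the data were seen, called 32.3% of all genes. The change in the 30 lines minus that in the 70, on the log2 scale, was 0.486 for PHYB, 0.435 for PHYC, 0.246 for PHYA and −0.306 for SE5. In the 2022 libraries r between position and log2 total was 0.518 over all 100, −0.762 within the 30 and −0.211 within the 70. All 30 deepest libraries lay in the later run of sample records. The parts of depth, position and run in these differences were not tested.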

How the results depend on the processing

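Of 98 values of the year change under alternatives, 79 kept their direction and side of the threshold, as did 49 of 63 trend values in 2022, 49 of 63 in 2023, 57 of 70 repeatability values and 7 of 14 differences of slopes. Most changes of sign were in values that passed under neither setting. The year change of CRY2 turned to 0.0033 with DESeq2, 0.0023 with RLE factors, 0.0048 without a filter, 0.0515 in the 30 lines of the deepest 2022 libraries, 0.00385 in the 40 lines of the later run of 2022 records and 0.0125 in the 50 lines with the lower numbers. That of PHYB turned to 0.31, 0.28 and 0.17 in these 3 sets of lines, and that of PHYC to 0.10 in the 30 lines and 0.0787 in the 40. The number of members lower in 2023 was 4 by total counts and 1 in each of these 3 sets. Called in either direction were 13830 of all genes by total counts and 9527, 9948 and 10485 in the 30, 40 and 50 lines. The share of all genes called lower is not given for these settings. With line as a replicate block no call of the year change differed (PHYA −0.36, PHYB −0.02, PHYC −0.19, SE5 0.32, CRY1a 0.15, CRY1b 0.23, CRY2 −0.01), while 0 of 7 differences of slopes were called, where 2.14% of all genes were. By limma on differences within lines, a replicate block, the same 4 genes differed between the 30 and the 70 lines. They were at 0.24 for PHYA, 0.47 for PHYB, 0.43 for PHYC and −0.32 for SE5, and CRY1a was at −0.0112. Both this fit and the edgeR interaction of year and set of lines were added after the data were seen. Line numbers ran against the 2022 columns, so with line number in place of position the signs of 2022 turned, to 0.52 for PHYA, 0.46 for PHYB, 0.61 for PHYC, −0.44 for SE5, −0.14 for CRY1a, −0.27 for CRY1b and 0.24 for CRY2, and in 2023 to −0.0076 for PHYC, 0.0669 for CRY1a and 0.15 for CRY1b. The 2022 trend was called for 2 members in the 30 lines and for 7, CRY2 added, by total counts, by RLE factors and without lines J2_378 and J2_204. Of all genes 1107, 9392, 9733 and 10063 were called in these settings, in the order named. The 2023 trend was called for 1 member by Spearman's rho, beside 1837 of all genes. That of PHYC turned to −0.0119 with RLE factors, −0.0113 with thinned libraries and −0.0028 without lines J2_378 and J2_204. In the 30 lines the 2023 trend was −0.27 for PHYA, −0.0250 for PHYC, −0.22 for SE5 and −0.0219 for CRY2, and in the other 70 it was 0.12 for PHYB, 0.0284 for CRY1a and 0.13 for CRY1b. Repeatability was called for 0 members with thinned libraries, 0 in the 30 lines and 2 by Spearman's rho. The main setting called 1 member and 21.9% of all genes. No share of all genes is given for the other 3 settings, so these counts cannot be set against one. It turned to −0.0457 for SE5 by total counts. For PHYC it turned to −0.0049 with RLE factors, −0.0499 with thinned libraries, −0.13 by rho, −0.11 in the 30 lines and −0.17 without lines J2_378 and J2_204. For PHYA it was −0.12 in the 30 lines. For PHYB it was 0.13 in the 30 lines, 0.0623 in the other 70 and 0.0522 with the trends removed. Pairs called in both years numbered 3 in the 30 lines and 4 without lines J2_378 and J2_204, the latter chosen after the data were seen. The causes were not tested, and the subsets hold fewer lines. The lowest count of any member in a library was 33, of PHYA.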
